A study of Homo sapiens with 6 samples.

Results

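Genes of glucose breakdown and genes linked to low oxygen were followed as a set of 33 members through the transcriptomes of 2 human lung epithelial cell lines exposed to TGF-β1. The members were taken by symbol from a list made for this work. Their measured values were not a criterion, but the list was chosen with earlier results of these data known. All 33 had 1 row each among the 24462 gene symbols of the count files. They comprised 2 glucose transporters, 9 enzymes of the upper and 6 enzymes of the lower part of glycolysis, 4 enzymes and transporters of lactate, 4 regulatory kinases and 8 hypoxia-linked genes. Of the 33 members, 29 reached the minimum level described below in at least 1 library, and PFKM, CA9, EGLN3 and ANKRD37 did not.

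The libraries came from A549, a human lung adenocarcinoma line, and from BEAS-2B, an immortalized line from human bronchial epithelium, both labeled as wild type. For each line there was an untreated control and cultures that received 1 or 5 ng/mL of TGF-β1 over 48 h. Each of the 6 conditions had 1 library, so that variation among cultures could not be estimated and no p-value is given. By the labels, the treated cells were kept in medium with reduced serum, while the medium of the controls was not given there. The study's methods describe culture of both lines with fetal bovine serum and name no reduced serum for the treatment.

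Glycolysis splits glucose into pyruvate in a chain of enzyme steps that yields ATP without oxygen, and lactate dehydrogenase converts the pyruvate to lactate. Many enzymes of the chain exist as isozymes that are encoded by separate genes. When oxygen is low, the transcription factor HIF-1 accumulates and binds short sequences near its targets, which include glycolytic genes as well as CA9, BNIP3, ADM and ANGPTL4. TGF-β1 is a cytokine of wound repair under which epithelial cells take on a mesenchymal, matrix-producing state.

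The largest movements in the set were not in the glycolytic chain. ANGPTL4, a secreted inhibitor of lipoprotein lipase, rose 36.7-fold in A549 and 129-fold in BEAS-2B cells at 5 ng/mL. PDK4, a kinase that switches off pyruvate dehydrogenase, fell by 4.75 on the log2 scale in A549 cells at 5 ng/mL and was barely detected in BEAS-2B cells. ADM, the vasodilating peptide adrenomedullin, fell in both lines at both doses. CA9, a hypoxia-inducible carbonic anhydrase, had counts in both controls and 0 counts in both libraries at 5 ng/mL. The enzymes of the chain mostly moved by less than 2-fold.

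Values are read counts at the 3′ ends of mRNAs, scaled between libraries with the trimmed mean method (TMM) of edgeR and called normalized counts. A log2 fold change compares normalized counts after addition of 1 to each. A gene was called when it differed by at least 2-fold and its ND value, log2 of the normalized count plus 1, reached 7 in either library of the comparison. Both limits carry the numbers of the study, but the scale of its ND values was not given in the sources used here. On the scale chosen here the level stands for a normalized count of 127, or 24.7 counts per 1000000 (CPM). If the ND value were log2(CPM + 1), the level would be 127 CPM, and calls over all genes at 5 ng/mL would be 420 up and 308 down in A549 and 158 and 199 in BEAS-2B cells, in place of 1146 and 1220, and 494 and 783. Of the members called against the controls, PFKL, HK1, BNIP3 and ADM in A549 cells and HK2 in BEAS-2B cells would then lose the call. The study's totals of changed genes per line lie much nearer to the calls at that higher level than to those used here. The minimum level used here may thus be lower than that of the study. "Rose" and "fell" are used for called genes alone. Ratios of normalized counts carry exact 95% Clopper-Pearson counting intervals, which cover counting error alone, since without molecular identifiers reads may copy the same molecule. Where no read was counted, up to 3 counts remain possible, corresponding to 0.383 to 0.728 CPM. As these are bulk samples, fewer cells of a kind and less RNA per cell cannot be told apart.

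Total counts ranged from 4120624 to 7841350 per library, with the highest total in A549 cells at 1 ng/mL. From a list of known TGF-β targets, 5 of 5 tested genes rose in A549 and 6 of 6 in BEAS-2B cells at 5 ng/mL. Among all tested genes, 16.1% and 7.33% rose at this dose. This list was also chosen with earlier results of these data known, so it is no independent check of the response. Of 6 epithelial markers, EPCAM had 0 counts and CDH1 at most 2 counts in every BEAS-2B library, and 4 were tested in A549 cells, where KRT8 and CDH1 fell and KRT7 rose at both doses. KRT7 also rose in BEAS-2B cells, where 3 were tested, and the part of these shifts in the results below was not tested. No marker of leukocytes or endothelium exceeded 73 counts in any library.

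With 1 ng/mL in A549 cells, 3 of 24 tested members rose and 3 fell, beside 10.9% up and 12.6% down among all tested genes. The risen members were SLC2A3, PFKL and ANGPTL4, and the fallen members were PDK4, BNIP3 and ADM. At 5 ng/mL, 5 of 25 rose and 4 fell in this line, beside 16.1% and 17.1%. HK1, PFKP and PKM then stood among the risen members in place of PFKL, and PFKFB3 joined the fallen members. In BEAS-2B cells at 1 ng/mL, 1 of 27 rose and 2 fell, beside 5.66% and 9.13%. At 5 ng/mL in BEAS-2B cells, 1 of 26 rose and 3 fell, beside 7.33% and 11.6%. ANGPTL4 was the riser at both doses, HK2 and ADM fell at both, and NDRG1 passed the criteria at 5 ng/mL. These shares lie near the background of all genes, so that the set as a whole did not stand out by its number of calls. Altogether 12 members were called in a treated library and 21 in none. Both doses of a line were compared with the same control.

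The median log2 fold change of the tested members at 5 ng/mL was 0.17 in A549 and 0.10 in BEAS-2B cells, beside 0.11 and 0.03 over all tested genes. The median in A549 cells was between -0.24 and 0.20 over 7 scalings, being below 0 with total counts, with quantile normalization and after removal of a GC trend, and the median in BEAS-2B cells turned to -0.03 with total counts. Between 1 and 5 ng/mL, 3 of 25 members were called in A549 cells, where 3.4% of all genes were called. These were ANGPTL4 and SLC16A3, which were higher at 5 ng/mL, and PDK4, which was lower. In BEAS-2B cells, 0 of 26 members differed by this measure between the doses, beside 0.904% of all genes.

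**Figure D1:**
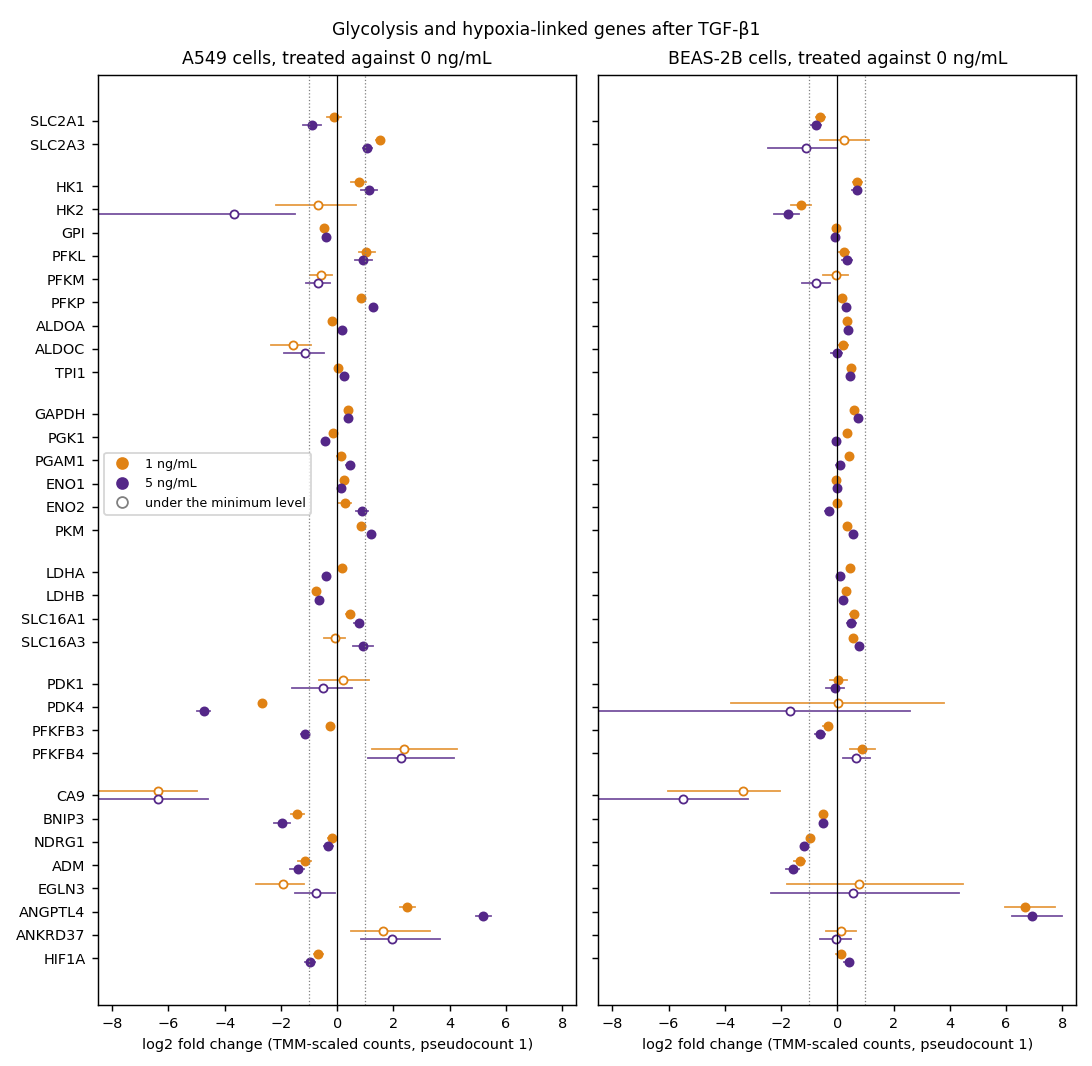
Log2 fold changes of the 33 members (horizontal axis) in A549 (left) and BEAS-2B cells (right) at 1 and 5 ng/mL TGF-β1 against the control of the same line, grouped from top to bottom into transporters, upper and lower glycolysis, lactate genes, regulatory kinases and hypoxia-linked genes. Lines are 95% counting intervals of the ratio, clipped at the edge of the plot, open points are genes under the minimum level, and dotted lines mark 2-fold. ANGPTL4 lies far to the right in both lines, with 5.19 and 6.91 at 5 ng/mL, and most enzymes lie between the dotted lines.

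The glucose transporters SLC2A1 and SLC2A3 carry glucose into the cell, and SLC2A3 has the higher affinity. Across the doses of 0, 1 and 5 ng/mL, SLC2A3 had normalized counts of 502, 1443 and 1055 in A549 cells. It had 25.7, 30.4 and 11.3 in BEAS-2B cells, under the minimum level throughout. The rise in A549 cells was 2.88-fold at 1 ng/mL (95% counting interval 2.59 to 3.20) and 2.10-fold at 5 ng/mL (1.88 to 2.35). The latter dropped under 2-fold with total counts, to a log2 change of 0.87, and with quantile normalization. SLC2A1, the basal transporter of most cells, had 242, 225 and 130 in A549 and 806, 532 and 474 in BEAS-2B cells. Its treated libraries were below the control in both lines, with a log2 fold change of -0.90 in A549 and -0.77 in BEAS-2B cells at 5 ng/mL, short of the 2-fold limit. With total counts and with the GC trend removed, the A549 value reached -1.10 and -1.14 and would be called. As a share of the counts of both transporters, SLC2A3 made up 67.4% in untreated A549 cells (exact 95% interval 63.7 to 71.1), 86.5% at 1 ng/mL and 89.1% at 5 ng/mL. In BEAS-2B cells this share was 2.3% to 5.4% in the 3 libraries.

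Hexokinase traps glucose in the cell by phosphorylation. HK1, the constitutive isozyme, had normalized counts of 173, 293 and 377 in A549 and 625, 1025 and 1010 in BEAS-2B cells, in the same order of doses. HK2, the inducible isozyme and a HIF-1 target, had 239, 97.9 and 69.3 in BEAS-2B cells. In A549 cells, HK2 was near the detection limit, with 10, 10 and 0 counts. The pair thus differed in direction in BEAS-2B cells, where HK2 fell 2.44-fold (1.89 to 3.17) and 3.45-fold (2.55 to 4.72) while HK1 had ratios of 1.64 and 1.62. HK1 rose in A549 cells at 5 ng/mL by 2.19-fold (1.81 to 2.65), a call that was lost with total counts at a log2 change of 0.92. The share of HK1 in the counts of both hexokinases was 72.4% in untreated BEAS-2B cells (69.1 to 75.5), 91.3% at 1 ng/mL (89.4 to 92.96) and 93.6% at 5 ng/mL (91.7 to 95.1). These shares are taken within a library and do not depend on a scaling factor per library. They are shares of 3′ reads, so a difference between the genes in how well their 3′ ends are read enters them. Such a difference need not be equal in all libraries. With the GC trend removed, the log2 changes in BEAS-2B cells at 5 ng/mL were 0.67 for HK1 and -1.74 for HK2. In A549 cells at 5 ng/mL, SLC16A3 went from 0.91 to 0.27 and SLC16A1 from 0.76 to 0.95.

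Phosphofructokinase commits the sugar to glycolysis and is built from the liver type PFKL, the muscle type PFKM and the platelet type PFKP. PFKP had normalized counts of 1145, 2048 and 2780 in A549 and 1961, 2207 and 2432 in BEAS-2B cells. It rose 2.43-fold in A549 cells at 5 ng/mL (2.26 to 2.61), and its log2 change of 1.28 became 0.99 after removal of the GC trend. PFKL had 154, 318 and 294 in A549 cells and between 523 and 661 in BEAS-2B cells. PFKL passed the limit in A549 cells at 1 ng/mL with a ratio of 2.06 (1.70 to 2.52), and the call was lost with DESeq2 size factors, with total counts and without the GC trend, where its log2 change was 0.38. PFKM stayed below the minimum level in every library. Among the counts of the 3 genes, PFKP had 80.3%, 83.5% and 88.2% in A549 cells, and PFKM had 8.9%, 3.5% and 2.5%. In BEAS-2B cells, PFKP had 75.6%, 75.3% and 77.0%.

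The other upper enzymes were not called in either line. GPI, which isomerizes glucose 6-phosphate, had log2 fold changes of -0.46 and -0.40 in A549 cells and -0.04 and -0.09 in BEAS-2B cells. ALDOA, the aldolase of most tissues, had 0.17 in A549 and 0.37 in BEAS-2B cells with 5 ng/mL, and the A549 value changed sign with total counts and without the GC trend. ALDOC, an aldolase best known from the brain, had normalized counts of 59.1, 19.2 and 26.3 in A549 cells, below the minimum level. In BEAS-2B cells, ALDOC had 573, 664 and 564. TPI1, which interconverts the triose phosphates, had log2 fold changes of 0.48 and 0.44 in BEAS-2B cells and lay near 0 in A549 cells at 1 ng/mL.

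GAPDH had normalized counts of 19094, 24975 and 24928 in A549 and 14337, 21390 and 24064 in BEAS-2B cells. It oxidizes glyceraldehyde 3-phosphate and is widely used as a reference transcript, also in the qRT-PCR of this study. The treated libraries were above the control in both lines, with log2 fold changes of 0.39 and 0.38 in A549 and 0.58 and 0.75 in BEAS-2B cells. The sign in A549 cells turned with quantile normalization, to -0.46 at both doses, and after removal of the GC trend at 5 ng/mL, to -0.08. In BEAS-2B cells the GAPDH value went down to 0.00 and 0.08 with quantile normalization. That method assigns values by rank within a library, so for the most abundant genes, such as GAPDH and PKM, its changes are steps between ranks. A gene set against GAPDH in these libraries is shifted by the GAPDH difference itself. On that scale, the change of ADM at 5 ng/mL was -1.80 in A549 and -2.33 in BEAS-2B cells, and that of HK1 in BEAS-2B cells was -0.05.

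PKM, the pyruvate kinase of most tissues and the last enzyme before pyruvate, had normalized counts of 8432, 15262 and 19267 in A549 and 7804, 9962 and 11457 in BEAS-2B cells. It rose 2.29-fold in A549 cells at 5 ng/mL (2.22 to 2.35), and it had ratios of 1.28 and 1.47 in BEAS-2B cells. Its log2 change in A549 cells, 1.19, became 0.99 with total counts and 0.56 with quantile normalization, which ends the call. The remaining lower enzymes were not called. PGK1, the kinase that makes the first ATP of the chain, had -0.42 in A549 and -0.05 in BEAS-2B cells with 5 ng/mL, and PGAM1, the mutase after it, had 0.44 and 0.09. For both genes the BEAS-2B sign depended on the scaling. ENO1, the ubiquitous enolase, had 0.12 in A549 and 0.01 in BEAS-2B cells, and its sign also changed between scalings in both lines.

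ENO2, the enolase best known from neurons, had normalized counts of 271, 327 and 501 in A549 cells and 1394, 1385 and 1122 in BEAS-2B cells. The A549 libraries were higher with each dose and the BEAS-2B library at 5 ng/mL lay below its control, with ratios of 1.85 (1.58 to 2.16) and 0.805 (0.738 to 0.878). The ENO2 share of the enolase counts was 3.6% in the A549 control and 6.0% with 5 ng/mL, while it was 8.3% and 6.8% in BEAS-2B cells, so that the lines came closer together.

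Over the 17 enzymes from hexokinase to lactate dehydrogenase, 14 were tested in A549 and 16 in BEAS-2B cells at 5 ng/mL. HK1, PFKP and PKM rose in A549 cells, 21.4% of those tested beside 16.1% of all genes, and 0 fell, with a median log2 change of 0.32 that went to 0.00 in the lowest of 7 scalings. HK2 fell in BEAS-2B cells, 6.25% of those tested beside 11.6%, and 0 rose, with a median of 0.16. These shares are near or under those of all genes. Together the 17 enzymes took 1.43% of all counts in the A549 control and 1.49% with 5 ng/mL. In BEAS-2B cells they took 1.47% in the control and 1.68% with 5 ng/mL. Without GAPDH, the shares were 1.03%, 1.04% and 1.04% in A549 and 1.17%, 1.27% and 1.22% in BEAS-2B cells.

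**Figure D2:**
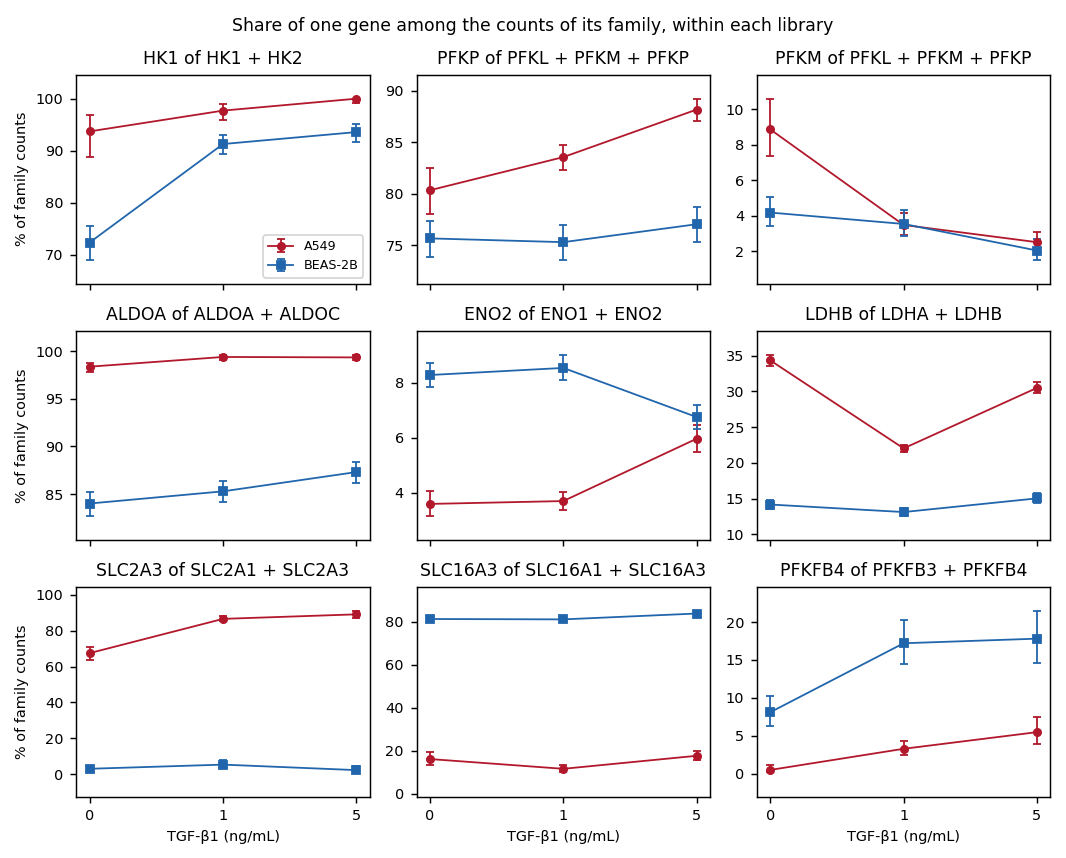
Share of 1 gene in the summed counts of its family (vertical axis, percent) in each library, against the TGF-β1 dose (horizontal axis, 0, 1 and 5 ng/mL), for A549 and BEAS-2B cells; bars are exact 95% binomial intervals and the vertical axes do not start at 0. The HK1 share in BEAS-2B cells goes from 72.4% to 93.6%, and the LDHB share in A549 cells is lowest at 1 ng/mL, with 22.0%.

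Lactate dehydrogenase is a tetramer of LDHA, which favors lactate formation, and LDHB, which favors the reverse reaction. LDHA had normalized counts of 12103, 13454 and 9249 in A549 and 10006, 13586 and 10771 in BEAS-2B cells, highest at 1 ng/mL in both lines, an order that total counts and quantile normalization did not give in A549 cells. LDHB had 6334, 3800 and 4060 in A549 and 1651, 2049 and 1904 in BEAS-2B cells. The treated A549 libraries were thus below the control, by ratios of 0.600 (0.578 to 0.623) and 0.641 (0.616 to 0.667), and the treated BEAS-2B libraries were above it. The LDHB share of the dehydrogenase counts was 34.4%, 22.0% and 30.5% in A549 cells while it was 13.1% to 15.0% in BEAS-2B cells. The A549 share was lower at 1 ng/mL than at 5 ng/mL, so that it had no order by dose.

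The monocarboxylate transporters SLC16A1 and SLC16A3 move lactate across the membrane, and SLC16A3 is the form of lactate-exporting cells. SLC16A1 had normalized counts of 586, 806 and 993 in A549 and 738, 1105 and 1047 in BEAS-2B cells. SLC16A3 had 112, 105 and 212 in A549 cells and 3222, 4768 and 5460 in BEAS-2B cells. No value passed 2-fold against the control with TMM, although the treated BEAS-2B libraries of both genes were above it by ratios of 1.42 to 1.69. From 1 to 5 ng/mL, SLC16A3 rose 2.02-fold in A549 cells (1.64 to 2.49), just past the limit, and the call was lost with total counts and with the GC trend removed, both at a log2 change of 0.97. Against the control, the log2 change of SLC16A3 at 5 ng/mL in A549 cells was 0.91, which became 0.27 with the GC trend removed and 1.03, past the limit, with quantile normalization.

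The regulatory kinases set how much sugar enters the chain and whether pyruvate enters the mitochondria. PDK4 had normalized counts of 4066, 643 and 151 in the A549 libraries, in the order of the doses, and 2, 2 and 0 counts in the BEAS-2B libraries. The fall in A549 cells was 6.32-fold at 1 ng/mL (5.88 to 6.80) and 27.0-fold at 5 ng/mL (23.1 to 31.7), and its log2 change stayed between -4.95 and -4.51 at 5 ng/mL over the scalings. PDK1, the family member that HIF-1 induces, had 16 to 35 counts in A549 cells, under the minimum level, and normalized counts of 199, 204 and 186 in BEAS-2B cells. PDK4 made up 99.5% of the counts of both kinases in untreated A549 cells and 91.2% at 5 ng/mL, and 1.1% or less in BEAS-2B cells.

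PFKFB3 and PFKFB4 make and degrade the sugar phosphate that activates phosphofructokinase. PFKFB3 had normalized counts of 1204 (0 ng/mL) and 1016 (1 ng/mL) in A549 cells, where its raw count was 605 at 5 ng/mL, and it had 811, 639 and 529 in BEAS-2B cells. It fell 2.19-fold in A549 cells at 5 ng/mL (1.98 to 2.43), and its ratio in BEAS-2B cells was 0.652. PFKFB4 lay on the other side of the control at low counts, with 5, 50 and 35 counts in A549 and 64, 118 and 91 in BEAS-2B cells. The ratios of PFKFB4 were 5.48 (2.14 to 17.9) in A549 and 1.61 (1.15 to 2.25) in BEAS-2B cells at 5 ng/mL, with all A549 libraries under the minimum level. The PFKFB4 share of their summed counts was 0.5%, 3.3% and 5.5% in A549 and 8.1%, 17.2% and 17.8% in BEAS-2B cells.

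**Figure D3:**
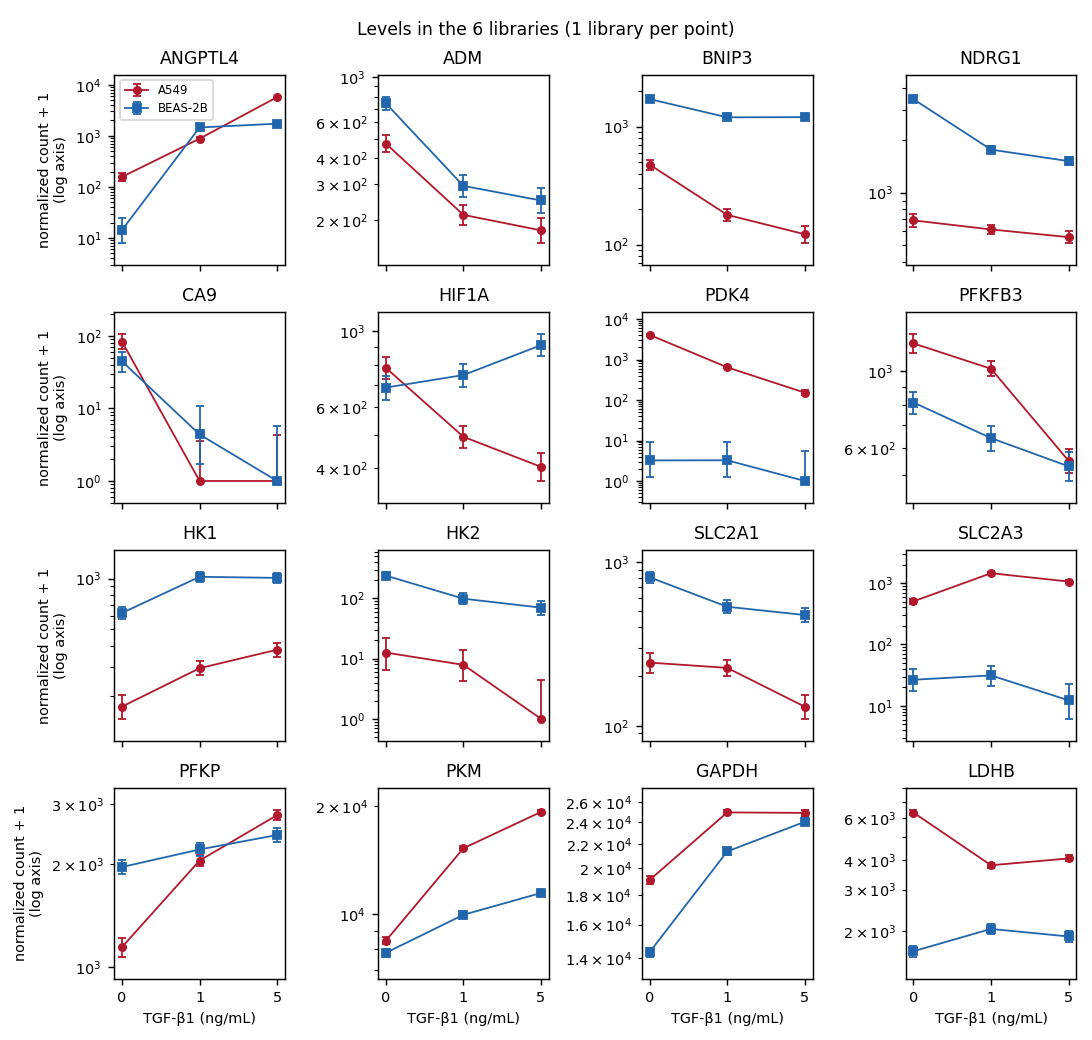
Normalized count plus 1 (vertical log axis, a separate range for each gene) of 16 members in the 6 libraries against the TGF-β1 dose (horizontal axis, 0, 1 and 5 ng/mL). Each point is 1 library with its exact 95% Poisson interval, and PDK4 goes from 4066 to 151 in A549 cells while CA9 reaches 0 at 5 ng/mL in both lines.

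HIF-1 recognizes a core of ACGTG or GCGTG. Both cores were searched on both strands of the annotated promoter windows of RefSeq on GRCh38.p14, each from 250 bases before to 50 bases after a transcription start. Entries were found for 30 members, and SLC16A1, SLC2A3 and NDRG1 had none. A core was present in 37 of 57 windows of the members (64.9%), beside 48.4% of all 35116 windows, and in 27 of 30 genes, beside 52.4% of all genes. A gene was counted when any of its windows held a core, which favors genes with many windows. The members had 57 windows for 30 genes, beside 35116 windows for 27305 genes. HK1, for example, had a core in 2 of 7 windows. Genes linked to HIF-1 were part of the choice of members, so a higher share of cores could follow from that choice. The windows of all genes were not limited to genes detected here. The median transcript GC was 53.0% for the members and 48.5% for entries above the minimum level. The part of this difference in the shares was not tested. Of members with a window, 5 of 5 called up and 4 of 5 called down had a core. A match of these letters is a description and not a binding site. Of the members with the strongest movements, the 250 bases before the start are given for CA9, BNIP3, ADM and ANGPTL4, since the first 3 were lower and the last was higher after treatment while all 4 contain a core. The sequences read 5′ to 3′ on the strand of the gene, with cores of either strand in capitals.
CA9 (chr9:35673678-35673927, plus strand): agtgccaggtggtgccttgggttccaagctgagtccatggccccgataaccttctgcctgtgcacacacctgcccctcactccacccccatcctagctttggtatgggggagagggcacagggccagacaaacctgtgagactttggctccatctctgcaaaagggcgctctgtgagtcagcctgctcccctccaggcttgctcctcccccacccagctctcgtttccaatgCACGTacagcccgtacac
BNIP3 (chr10:131981924-131982173, minus strand): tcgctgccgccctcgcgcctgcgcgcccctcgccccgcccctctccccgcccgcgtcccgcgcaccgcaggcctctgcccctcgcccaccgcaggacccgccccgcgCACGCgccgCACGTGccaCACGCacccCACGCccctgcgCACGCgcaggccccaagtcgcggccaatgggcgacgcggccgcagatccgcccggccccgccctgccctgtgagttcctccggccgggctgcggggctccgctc
ADM (chr11:10304823-10305072, plus strand): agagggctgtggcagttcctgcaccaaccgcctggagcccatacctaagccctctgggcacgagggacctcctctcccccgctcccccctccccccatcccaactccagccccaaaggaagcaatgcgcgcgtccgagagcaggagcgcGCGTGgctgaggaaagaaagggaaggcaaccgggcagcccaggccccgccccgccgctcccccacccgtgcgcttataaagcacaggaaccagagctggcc
ANGPTL4 (chr19:8363905-8364154, plus strand): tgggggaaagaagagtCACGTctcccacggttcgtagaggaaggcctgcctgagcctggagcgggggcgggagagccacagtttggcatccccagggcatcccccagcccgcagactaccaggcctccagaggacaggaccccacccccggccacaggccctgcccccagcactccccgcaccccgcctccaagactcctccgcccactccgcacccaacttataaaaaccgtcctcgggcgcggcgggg
The core of CA9 begins 18 bases before the start, that of ADM 101 and that of ANGPTL4 234 bases before it. BNIP3 holds 6 cores between 143 and 104 bases before the start, of which 2 are the same 6 letters read on either strand. The window of PDK4 holds 0 cores, which says only that these letters do not occur in it.

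Of the hypoxia-linked members, 5 of 8 were tested at 5 ng/mL in each line. In A549 cells BNIP3 and ADM fell and ANGPTL4 rose, beside 17.1% down and 16.1% up among all genes, and the median log2 change was -0.96. In BEAS-2B cells ADM and NDRG1 fell and ANGPTL4 rose, beside 11.6% and 7.33%, with a median of -0.51.

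CA9 acidifies the space around hypoxic cells and is among the most responsive HIF-1 targets. It had 71, 0 and 0 counts in A549 cells and 39, 3 and 0 counts in BEAS-2B cells. The controls stood at 17.1 and 9.17 CPM, under the minimum level of a call. With 3 counts in place of 0 and the control as measured, CA9 in A549 cells was at least 39.9-fold lower at 1 ng/mL and at least 30.2-fold lower at 5 ng/mL. The exact 95% interval, which also takes in the counting error of the control, begins at 31.6-fold and 23.9-fold. The BEAS-2B value was 12.9-fold lower at 1 ng/mL (4.10 to 65.2) and at least 11.5-fold lower at 5 ng/mL, where the interval begins at 8.93-fold. The 0 of A549 cells at 1 ng/mL was found in the library with the highest total, 7841350 counts.

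BNIP3, a mitochondrial protein that promotes mitophagy, had normalized counts of 476, 178 and 122 in A549 cells and 1712, 1200 and 1204 in BEAS-2B cells. It fell 2.68-fold (2.29 to 3.14) and 3.92-fold (3.22 to 4.80) in A549 cells. In BEAS-2B cells the ratio was 0.701 and 0.703 and was not called. ADM had 472, 211 and 177 in A549 and 743, 293 and 248 in BEAS-2B cells. Its fall was of similar size in all 4 comparisons, from 2.24-fold (1.92 to 2.60) in A549 cells at 1 ng/mL to 2.99-fold (2.55 to 3.53) in BEAS-2B cells at 5 ng/mL.

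NDRG1, a stress-response protein induced by low oxygen and by iron depletion, had normalized counts of 691, 612 and 553 in A549 and 3455, 1769 and 1518 in BEAS-2B cells. It fell 2.28-fold in BEAS-2B cells at 5 ng/mL (2.13 to 2.44). At 1 ng/mL its log2 change of -0.97 was just short of the limit and passed it with total counts and with quantile normalization, at -1.11 in the latter. EGLN3, an oxygen-dependent hydroxylase that marks HIF for degradation and is itself induced by HIF, had 43, 18 and 32 counts in A549 cells but only 2 to 4 counts in BEAS-2B cells. ANKRD37, a small HIF-1 target of little-known function, had 6, 34 and 33 counts in A549 with 52 to 66 counts in BEAS-2B cells. Both genes were too low for a call.

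ANGPTL4 had normalized counts of 156, 881 and 5736 in A549 cells and 13.4, 1458 and 1731 in BEAS-2B cells. The A549 libraries rose with each dose, by 5.63-fold at 1 ng/mL (4.71 to 6.78), and a further 6.51-fold from 1 to 5 ng/mL (6.13 to 6.92). The BEAS-2B libraries had the higher ratios, with 109 (62.2 to 211) and 129 (73.8 to 251), and hardly differed between the doses. These ratios rest on 12 counts in the BEAS-2B control. The direction of ANGPTL4 was thus opposite to that of CA9, BNIP3 and ADM in A549 cells.

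HIF1A, which encodes the oxygen-regulated subunit of HIF-1, had normalized counts of 782, 492 and 402 in A549 and 685, 745 and 911 in BEAS-2B cells. The treated A549 libraries were below the control, with a ratio of 0.514 at 5 ng/mL (0.455 to 0.580). The 5 ng/mL value would be called with total counts or quantile normalization. With the GC trend removed, its log2 change went from -0.96 to -0.61, further from the limit. The BEAS-2B library at 5 ng/mL was above the control with a ratio of 1.33 (1.19 to 1.48). HIF-1 is controlled mainly through the stability of the protein, which was not measured in these libraries.

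The untreated lines differed in many members, with 15 of 28 tested members called beside 37% of all genes. SLC2A3, LDHB, PDK4 and ANGPTL4 were higher in A549 cells, and 11 members were higher in BEAS-2B cells. The largest difference was in PDK4, with 3509 counts against 2 and a ratio of 1822 (504 to 15055). SLC16A3 was 28.7-fold lower in A549 cells (23.4 to 35.5) and HK2 was 20.6-fold lower (10.99 to 43.6), while SLC2A3 was 19.6-fold higher (12.9 to 31.2). Before treatment, SLC2A3 and LDHB were thus higher in A549 cells and SLC2A1, HK2, ALDOC, ENO2 and SLC16A3 in BEAS-2B cells.

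Further HIF targets outside the set were counted from a list of 29 genes, of which 22 were tested in each line. At 5 ng/mL, 3 rose and 5 fell in A549 cells, and 4 rose and 1 fell in BEAS-2B cells. The shares were 13.6% up and 22.7% down in A549 cells, near the 16.1% and 17.1% of all genes, and 18.2% and 4.55% in BEAS-2B cells, beside 7.33% and 11.6%. VEGFA, the angiogenic factor, had log2 changes of 1.65 and 2.23, and HMOX1, a heme-degrading enzyme, had 1.30 and 2.75. The largest falls in A549 cells were those of CA12, another carbonic anhydrase, with -3.26, and of HILPDA, a lipid droplet protein, with -2.27. TFRC, the transferrin receptor, fell in both lines, with -1.89 and -1.16. Of the oxygen-sensing genes, 0 of 8 tested were called in A549 cells, beside 16.1% up and 17.1% down among all genes. In BEAS-2B cells 1 of 9 fell (11.1%), near the 11.6% of all genes. It was EPAS1, which encodes the HIF-2 subunit, with -2.06.

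Pathways around glycolysis were described from lists in the same way, at 5 ng/mL. Of the genes for pyruvate entry and the citrate cycle, 9 of 21 fell and 0 rose in A549 cells, and 5 of 19 fell and 0 rose in BEAS-2B cells, with medians of -0.81 and -0.55, beside 17.1% and 11.6% down among all genes. FH, fumarase, had log2 changes of -3.04 and -1.85, and SDHC, a membrane anchor of succinate dehydrogenase, had -2.46 and -1.93. SDHB, its iron-sulfur subunit, fell in A549 cells with -2.69, and MPC2, a subunit of the mitochondrial pyruvate carrier, fell in both lines with -1.25 and -1.32. The medians of this list ranged from -1.02 to -0.76 in A549 and from -0.68 to -0.49 in BEAS-2B cells over the scalings. In the pentose phosphate and hexosamine list, 2 of 10 fell in A549 and 0 of 8 in BEAS-2B cells, beside the same shares of all genes. The fallen genes were PGD, 6-phosphogluconate dehydrogenase, with a log2 change of -1.09, and RPE, ribulose-phosphate epimerase, with -1.41.

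Of the genes for glycogen and gluconeogenesis, 1 of 7 rose and 2 fell in A549 cells, beside 16.1% up and 17.1% down among all genes, and 1 of 6 fell in BEAS-2B cells, beside 11.6% down. PYGL, a glycogen phosphorylase, rose in A549 cells with 1.36, PCK2, the mitochondrial PEP carboxykinase, fell there with -2.26, and GBE1, the glycogen branching enzyme, fell in both lines with -1.83 and -1.24. Of the less common glycolytic isozymes and transporters, 1 of 10 rose and 4 fell in A549 cells and 1 of 5 fell in BEAS-2B cells, to be read beside the same shares. ENO3, the muscle enolase, rose in A549 cells with 1.89, and ADPGK, an ADP-dependent glucokinase, fell with -2.67. PGAM4 had -2.48 and -2.10, but it is a near-identical copy of PGAM1 and its reads may not be separable. Among other regulators, FOXO1, a forkhead transcription factor, rose in A549 cells with 2.66, and TXNIP, an inhibitor of glucose uptake, fell in BEAS-2B cells with -2.24.

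**Figure D4:**
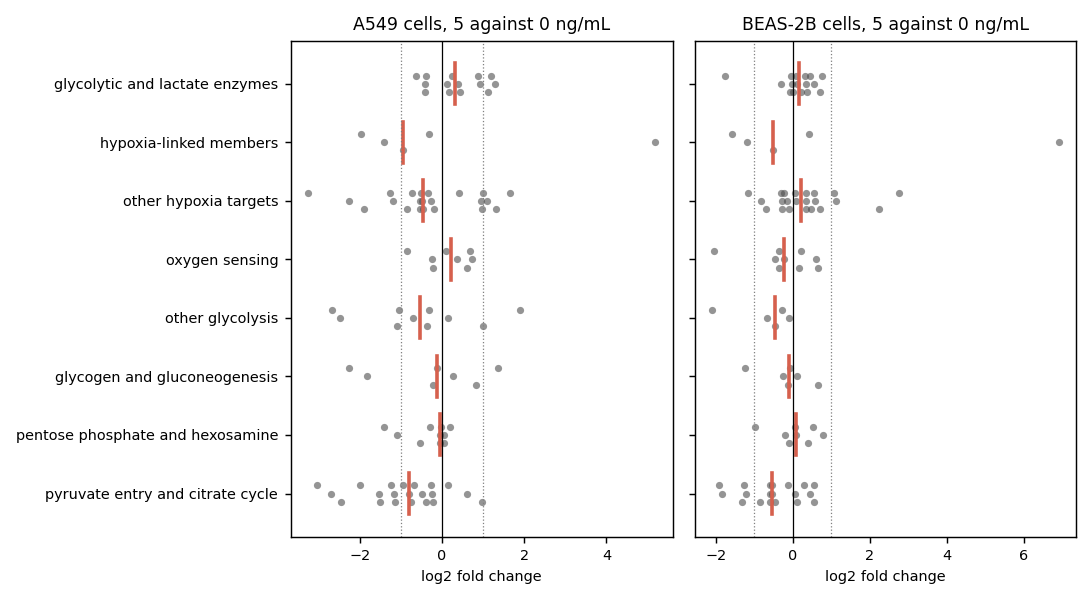
Log2 fold changes at 5 ng/mL against 0 ng/mL (horizontal axis, dotted lines at 2-fold) of the tested genes of 8 groups (rows) in A549 (left) and BEAS-2B cells (right). Each point is 1 gene, the vertical offset has no meaning, and the red bar is the median, which for the citrate cycle list is -0.81 in A549 and -0.55 in BEAS-2B cells.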

How the data were processed

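Libraries were made from total RNA with the QuantSeq 3′-mRNA FWD kit (Lexogen), and ExDEGA (E-Biogen) was used by the authors for quantification. The authors deposited raw read counts per gene symbol for 25737 entries in each library. The submitters' processing notes name hg19, Bowtie2 and bedtools without versions or settings, and other filters were not given in the sources used here. No genome of that build was used, so promoter coordinates are not those of the counted reads. Counting by strand was not stated.

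Counts were scaled by TMM with edgeR 4.0.16 (R 4.3.3) over all entries of the 6 libraries, to the mean effective size. The 286 symbols with more than 1 entry were kept apart, and no member was among them. Pseudogene rows were found only by name, as a member symbol followed by P and digits, and had at most 14 counts. Copies with other names were not searched. PGAM4, with 391 counts in the BEAS-2B control, is 1 of them, and its reads may not be separable from those of PGAM1. With 1 library per condition, no count model was fitted and no p-value computed. Intervals came from scipy 1.17.1, tables from pandas 2.3.3 and numpy 2.4.6 in Python 3.11.15, and figures from matplotlib 3.10.9. Calls and intervals were first tried on simulated counts that had no variation among cultures and no difference between the lines. Their changed genes had high mean counts and changes above 2-fold, so calls near the limits were not tried. GC content was known for 96.0% of the entries above the minimum level and for all 33 members.

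The members and the other lists were chosen with earlier results of these data known. All members may be named. Of the other lists, the 3 largest rises and falls among called genes at 5 ng/mL in each line may be named. In these lists, 2 genes are not reported here and were left out of the counts. The 17 alternatives comprise 6 scalings (DESeq2 1.42.0 size factors, total counts, upper quartile, TMM within a line, quantile normalization with limma 3.58.1, and a GC trend removed in 20 bins), and filters, pseudocounts, thinned libraries, other minimum levels and fold limits of 1.5 and 3.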

Additional observations from a re-analysis of the deposited data

Results flagged for a closer look

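Among the members that reached the minimum level in every comparison with the controls, 3 had the treated A549 libraries on the side of the control opposite to the treated BEAS-2B libraries at both doses. Under that level, EGLN3 also did so, with log2 changes of -1.93 and -0.76 in A549 cells against 0.77 and 0.56 in BEAS-2B cells, where it had 2 to 4 counts. How many of all genes meet the same rule was not counted, so no excess among the members can be read from it. The difference between the lines was not tested, as each condition had 1 library, and the intervals given cover counting error alone. For HIF1A, the A549 minus BEAS-2B difference of the log2 fold changes at 5 ng/mL was -1.37 (95% counting interval -1.60 to -1.14). At 1 ng/mL it was -0.79 (-1.01 to -0.57), where the BEAS-2B change of 0.12 turned to -0.01 with total counts. With the GC trend removed, the HIF1A change at 5 ng/mL was -0.61 in A549 and 0.39 in BEAS-2B cells. For LDHB, the difference at 5 ng/mL was -0.85 (-0.97 to -0.73), and it was -1.05 (-1.16 to -0.94) at 1 ng/mL. For ENO2, the difference at 5 ng/mL was 1.20 (0.94 to 1.45), and it was 0.28 (0.03 to 0.53) at 1 ng/mL, where the BEAS-2B change was -0.01 and became positive with DESeq2 size factors and with upper quartile factors.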

How the results depend on the processing

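No paired analysis was possible because each condition had 1 library. For the same reason no library could be left out. Of 186 counts of called members under the alternatives, 160 stayed within 1.5 times the count in the report. With a fold limit of 1.5, 6 members were higher and 5 lower in A549 cells at 1 ng/mL, 9 and 7 at 5 ng/mL, 3 and 4 in BEAS-2B cells with 1 ng/mL and 4 and 5 with 5 ng/mL, and 6 differed between the A549 doses. Among all tested genes in A549 cells, 1690 of 7007 were then higher and 1515 lower at 1 ng/mL. At 5 ng/mL these were 2126 and 1865 of 7115. In BEAS-2B cells they were 1014 and 1296 of 6681 with 1 ng/mL, and 1296 and 1493 of 6735 with 5 ng/mL. Between the A549 doses, 543 of 6467 genes were higher and 545 lower. With a limit of 3, 1 was higher and 1 lower in A549 cells at 1 ng/mL, 1 and 2 at 5 ng/mL, and 0 and 1 were lower with 1 and 5 ng/mL in the BEAS-2B line. Of all tested genes, 254 were higher and 420 lower of 7007 in A549 cells at 1 ng/mL. The numbers at 5 ng/mL were 420 and 670 of 7115. In the BEAS-2B line, 215 of 6681 and 307 of 6735 were lower with 1 and 5 ng/mL. With log2(CPM + 1) as the ND value, 1 and 2 members were lower in the A549 line with 1 and 5 ng/mL, 1 in BEAS-2B cells with 1 ng/mL, 1 differed between the A549 doses and 9 between the untreated lines. The lower genes among all were 213 of 1831, 308 of 1937 and 148 of 1899, in the same order. Between the A549 doses, 41 of 1631 genes were higher and 16 lower. Between the untreated lines, 374 of 2133 were higher in A549 cells and 455 lower. With an ND value of 7 in both libraries, 0 members were higher in BEAS-2B cells at either dose, 1 was lower at 1 ng/mL and 8 differed between the lines. Of all genes, 185 of 5394 and 246 of 5312 were higher at the 2 doses, and 263 were lower at 1 ng/mL. Between the lines, 479 of 5023 were higher in A549 cells and 656 lower. With an ND value of 8, 1 was lower in BEAS-2B cells at 1 ng/mL, beside 359 of 4355 genes. With total counts, 2 were higher in A549 cells at 5 ng/mL, beside 798 of 7153 genes. TMM within a line gives no comparison between the lines.

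Of 22 called values of members against the controls, 17 were kept under all 6 scalings and none changed sign. Of 1452 log2 values of members under the alternatives, 1280 stayed within their counting interval. Total counts shifted the median of all tested genes by -0.17 (1 ng/mL) and -0.20 (5 ng/mL) in the A549 line and by -0.13 at both doses in the BEAS-2B line. The higher share of all calls was then 32.2% and 33.8% in A549 cells, against 46.5% and 48.4% with TMM, and 27.3% and 26.9% in BEAS-2B cells, against 38.3% and 38.7%. The raw count that meets the minimum level lies between 101 and 185, and a gene below it in both libraries of a comparison could not be called.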
